A study of Mus musculus with 12 samples.

Results

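The genes described here are 32 genes known from resting astrocytes and from Bergmann glia, the radial astrocytes of the cerebellum, taken by symbol from a list of such genes. All 32 matched 1 gene each among 55536 genes counted. They were measured by bulk RNA-seq in the cerebellum and cortex of mice aged 1 month, in 4 groups of 3 libraries: cerebellum from WT mice, cerebellum from KO mice, cortex from WT mice and cortex from KO mice. The KO mice were homozygous for a single-base frameshift deletion in Snx14 on a C57BL/6J background. The deletion was made in the germline with Cas9 in embryos, so that all cells carry it, and the study used 1 such allele. The labels number the mice 1 to 3 in each genotype and give the same numbers in both tissues. Both sexes were used in the study, and the sex of each mouse was not given in the sources used here.

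Astrocytes clear glutamate and GABA from the space around synapses, buffer potassium and water, couple to each other through gap junctions and supply neurons with glutamine and lipids. In the cerebellum, Bergmann glia wrap the synapses of Purkinje cells and respond to Sonic hedgehog that Purkinje cells secrete, through the receptor Ptch1 and the transcription factor Gli1. Loss of SNX14 in people causes an ataxia with loss of Purkinje cells, and the study asked why the cerebellum is more vulnerable than the forebrain.

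Each library held between 16672589 and 19887427 read pairs on genes. Snx14, the check of the genotype, lay at 63.6 to 67.0 CPM, read pairs scaled by library size, in WT cerebellum and at 10.4 to 11.2 CPM in KO cerebellum. In cortex it lay at 53.6 to 59.8 CPM in WT and at 7.69 to 8.50 CPM in KO. The tissues matched their labels: all 10 Purkinje cell genes and all 9 granule cell genes listed were higher in WT cerebellum than in WT cortex, and 8 of 9 genes of cortical excitatory neurons were lower. In bulk tissue, fewer cells of a type and less RNA per cell cannot be told apart. Several libraries stood apart. KO replicates 1 and 3 of the cerebellum carried Nrgn, a calmodulin-binding protein of forebrain neurons, at 122 and 117 CPM against 1.99 to 9.15 CPM in the other 4 cerebellar libraries. Summed CPM of 8 choroid plexus and ependyma genes ranged from 81.8 to 7380 in WT cerebellum and from 967 to 3190 in KO cerebellum. KO replicate 3 of the cerebellum and KO replicate 2 of the cortex had the highest Gfap, the intermediate filament of reactive astrocytes, at 912 and 1050 CPM. 

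The promoters of 5 members are shown, chosen after their values were seen, as examples from both sides of the tissue difference with 1 RefSeq start each: Slc1a3, Gdf10 and S100b were higher in cerebellum, and Slc6a11 and Mfge8 were higher in WT cortex. Each is the 150 bases directly before the RefSeq transcription start in GRCm38.p6, on the strand of the gene, and none overlaps an exon of GENCODE vM21. Capitals mark a GC box, GGGCGG on either strand, where matches may share a base.

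Slc1a3, chr15:8710808-8710957, minus strand:
Slc1a3: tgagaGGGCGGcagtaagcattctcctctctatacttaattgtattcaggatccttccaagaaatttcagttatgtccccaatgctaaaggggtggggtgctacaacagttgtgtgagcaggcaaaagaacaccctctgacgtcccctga
Gdf10, chr14:33923437-33923586, plus strand:
Gdf10: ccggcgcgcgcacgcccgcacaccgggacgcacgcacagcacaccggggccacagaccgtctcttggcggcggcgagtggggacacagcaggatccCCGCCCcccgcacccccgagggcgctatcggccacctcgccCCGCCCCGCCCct
S100b, chr10:76253686-76253835, plus strand:
S100b: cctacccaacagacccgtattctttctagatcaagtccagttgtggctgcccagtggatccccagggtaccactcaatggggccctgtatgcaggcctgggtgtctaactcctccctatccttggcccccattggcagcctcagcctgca
Slc6a11, chr6:114131091-114131240, plus strand:
Slc6a11: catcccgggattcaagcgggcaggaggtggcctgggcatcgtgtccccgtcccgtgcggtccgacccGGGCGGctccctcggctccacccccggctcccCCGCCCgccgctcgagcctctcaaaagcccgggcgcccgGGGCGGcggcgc
Mfge8, chr7:79149061-79149210, minus strand:
Mfge8: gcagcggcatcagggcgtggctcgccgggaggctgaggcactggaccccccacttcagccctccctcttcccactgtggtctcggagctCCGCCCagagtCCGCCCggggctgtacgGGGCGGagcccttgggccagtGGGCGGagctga

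The stretch before Gdf10 and that before Slc6a11 were each 78.7% G or C and held 3 GC boxes, although the genes lay on opposite sides of the tissue difference. The stretch before S100b held none. In the full RefSeq windows of 300 bases, 27 of the 32 members had an entry, with 37 windows in all. Of these windows, 51.4% held a GC box, against 35.7% of 32851 windows of all genes, and the median G and C content was 60.0% against 52.7%. The GLI motif GACCACCCA was in 0 of 37 windows and in 0.253% of all windows. Gli1 itself had no entry. The SOX motif ACAAAGG, searched on both strands, was in windows of Slc6a9, Hepacam, Dao and Sox2, which is 10.8% of the members' windows against 5.88% of all.

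Between-gene comparisons of level are given as CPM per kb of counted exon length. In WT cerebellum the highest mean was that of S100b, a calcium-binding protein, at 551 ± 36.0 CPM per kb (SD, n = 3). Cst3, the secreted protease inhibitor cystatin C, followed at 460 ± 15.7, and Ndrg2 at 425 ± 71.4, so that Cst3 and Ndrg2 did not differ beyond their spread. Glul came next at 302 ± 9.13, then Slc1a3 at 244 ± 20.8 and Atp1b2 at 235 ± 11.9, which lay within each other's spread. In WT cortex the order began with Cst3 at 929 ± 173, Glul at 504 ± 8.35, Slc1a2 at 305 ± 22.4, Clu at 237 ± 12.3 and Ndrg2 at 220 ± 29.0. The lowest in cerebellum was Gli1 at 2.46 CPM per kb, and the lowest in cortex was Dao at 0.110 CPM per kb. The order of the first 6 was the same in KO cerebellum as in WT cerebellum, and the same held in cortex.

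Snx14-KO cerebellum was compared with WT cerebellum to ask whether resting astrocyte and Bergmann glia genes differ before neurons are lost. No member passed the test used here (edgeR, quasi-likelihood), in which a call needed both a Benjamini-Hochberg adjusted p under 0.05 and a log2 fold change beyond 0.50 in either direction. Of all 18201 genes tested, 0.00549% passed, which is Snx14 alone. The members' fold changes were small and mostly positive: 28 of 32 were above 0, with a median log2 fold change of 0.18 against 0.00 for all genes, and the range ran from -0.24 for Dao to 1.12 for Slc6a11. At an unadjusted p under 0.05, 13 members were higher in KO and 0 were lower, where 5.78% of all genes were higher and 2.37% were lower. In 10 members all 3 KO libraries lay above all 3 WT libraries, and in 0 members all lay below, against 6.22% and 6.32% of all genes. DESeq2 gave an adjusted p under 0.05 for Glul (0.00649) and Fgfr3 (0.0235), both below the fold threshold.

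**Figure D1:**
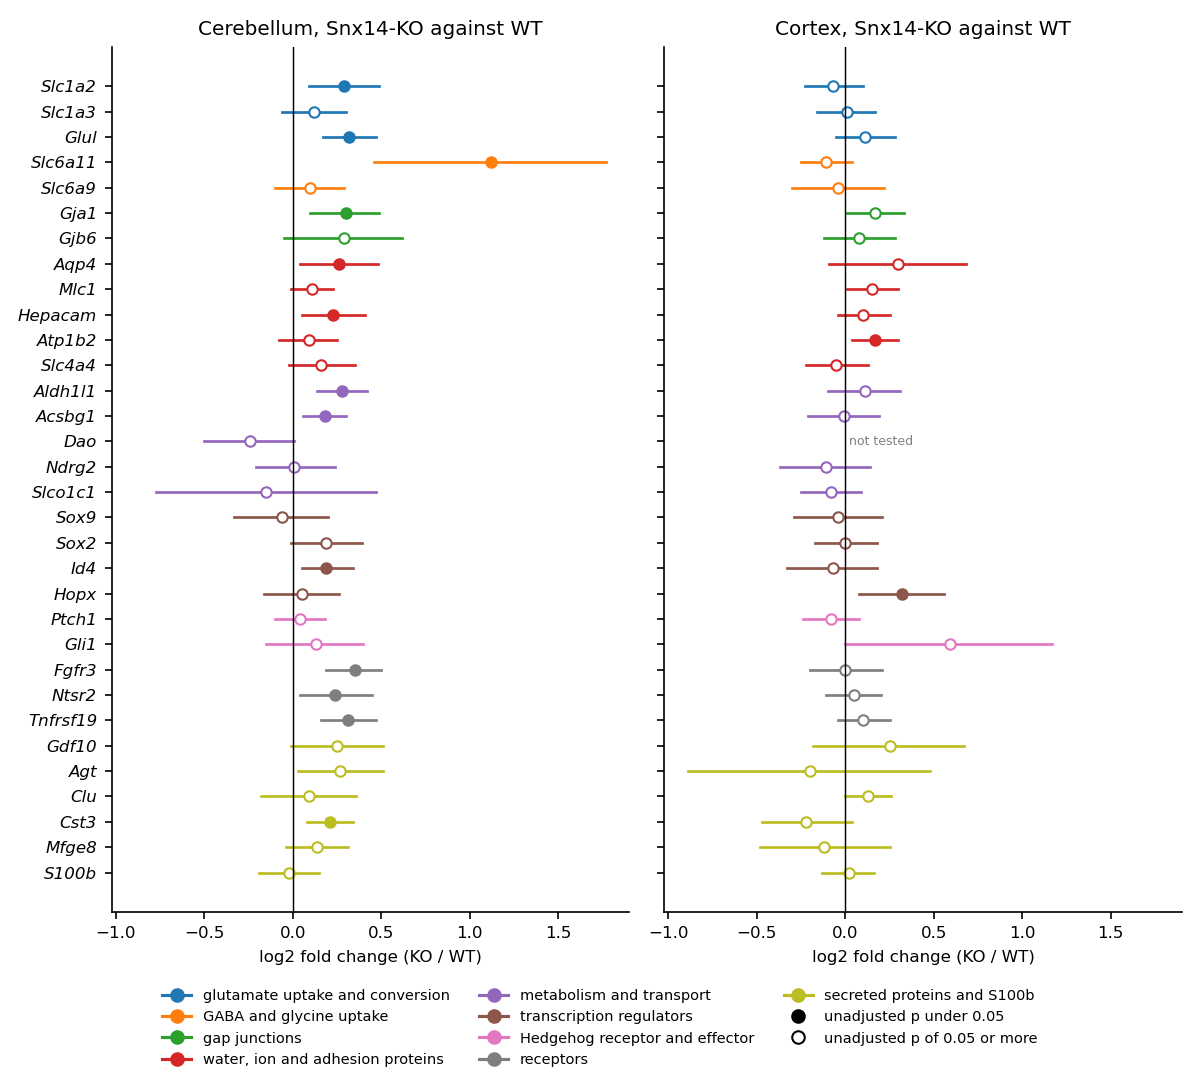
Log2 fold change of the 32 members in Snx14-KO against WT libraries in cerebellum (left) and cortex (right), by role. Points are edgeR estimates, bars are normal 95% intervals, and filled points have an unadjusted p under 0.05. In cerebellum 28 of 32 points lie above 0, with Slc6a11 far to the right at 1.12, and in cortex 18 of 31 do; Dao was not tested in cortex.

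The average over the members of the difference in log2(CPM + 1) from the WT mean was -0.03, 0.03 and 0.00 in the WT cerebellar libraries and 0.17, 0.12 and 0.20 in the KO cerebellar libraries. KO replicate 3 was the highest of the 6 libraries for 17 members. Without it, the median log2 fold change was 0.13, and 7 members had an unadjusted p under 0.05 on the higher side, against 3.27% of all genes. With KO replicates 1 and 3 both left out, an alternative added after the data were seen, the median was again 0.13 and 27 of 32 members were above 0. That fit has 1 KO library and takes its spread from the WT libraries, and the count of 0 members with an unadjusted p under 0.05 stands beside 2.19% of all genes on the higher side.

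Of 4 lists of markers of other cells, 0 genes passed the edgeR test in cerebellum, while DESeq2 called 10 meningeal fibroblast genes and 1 granule cell gene. The 9 granule cell genes were all lower in KO cerebellum, 5 of them at an unadjusted p under 0.05, with a median log2 fold change of -0.30, and their summed CPM was 4190, 4100 and 3580 in WT and 2960, 3720 and 3010 in KO, so that KO replicate 2 lay within the WT range. Without KO replicate 3 the median was -0.25, with 3 genes at an unadjusted p under 0.05. The 10 Purkinje cell genes, 1 of them at an unadjusted p under 0.05, had a median of -0.17, or -0.06 with 0 such genes without KO replicate 3, and summed to 10900 to 12200 CPM in WT and 8510 to 11100 CPM in KO. The 13 meningeal fibroblast genes were all higher, 11 of them at an unadjusted p under 0.05, with summed CPM of 177 to 356 in WT and 474 to 519 in KO and none of the genes at 0. The 14 microglia and macrophage genes, 9 of them at an unadjusted p under 0.05, had a median of 0.96, or 0.25 without KO replicate 3, and summed to 265, 337 and 268 CPM in WT and to 308, 349 and 798 CPM in KO, where all 14 were highest in KO replicate 3. Other lists had medians about as far from 0 as the members: 0.21 for 6 oligodendrocyte precursor genes, all higher, 0.18 for 6 mural cell genes, 5 of them higher and 1 called by DESeq2, 0.16 for 10 endothelial genes, 8 of them higher, and -0.16 for 10 oligodendrocyte genes, all lower, with 0 genes past the edgeR test. At an unadjusted p under 0.05 there were 2 higher genes in each of the first 3 of these lists and 0 in the oligodendrocyte list. Without KO replicate 3 the oligodendrocyte precursor median was 0.09, with 5 of the 6 genes higher and 0 at an unadjusted p under 0.05. The medians were then 0.26 for mural, 0.24 for endothelial and -0.13 for oligodendrocyte genes. The part of these cells in the members' differences was not tested.

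**Figure D2:**
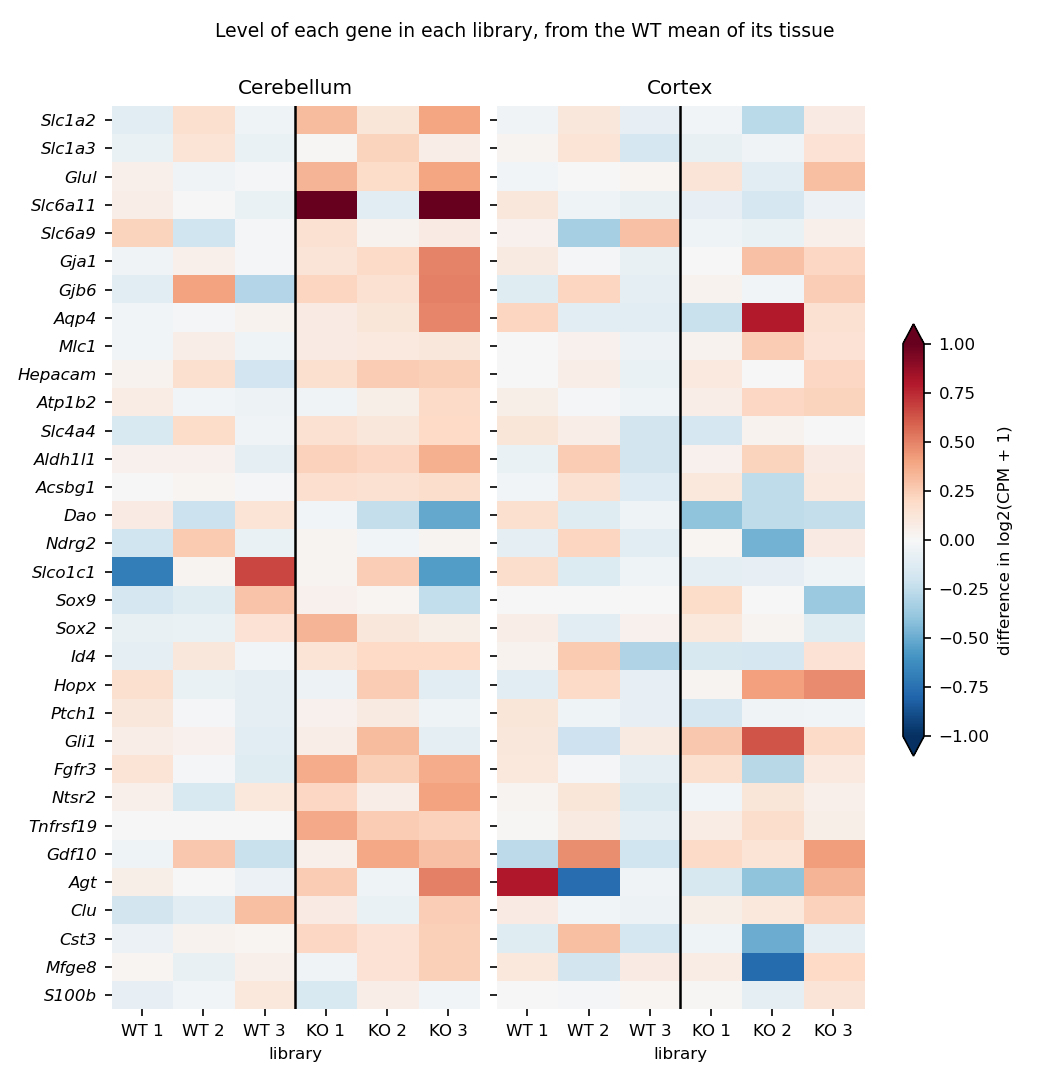
Each cell is the difference in log2(CPM + 1) of 1 member in 1 library from the mean of the 3 WT libraries of its tissue, with red above and blue below that mean and colours ending at 1 in each direction. In cerebellum the KO columns are mostly pale red, and Slc6a11 is dark in KO replicates 1 and 3 and not in KO replicate 2; in cortex KO replicate 2 stands out in Aqp4 and Mfge8.

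Among the genes of glutamate uptake and conversion, Slc1a2 (chr2:102658659-102790784, plus strand) and Slc1a3 (chr15:8634124-8710764, minus strand) encode the transporters GLT-1 and GLAST, and Glul encodes glutamine synthetase, which turns glutamate into glutamine. Glul measured 1040, 982 and 992 CPM in WT cerebellum and 1270, 1140 and 1320 CPM in KO cerebellum. Every KO library lay above every WT library, with a log2 fold change of 0.32 (SE 0.0783, unadjusted p = 0.00262, adjusted p = 0.259). Slc1a2 measured 1010, 1220 and 1060 CPM in WT and 1360, 1190 and 1440 CPM in KO, and KO replicate 2 lay within the WT range. Slc1a3 overlapped between the genotypes, at 1980 to 2290 CPM in WT and 2100 to 2420 CPM in KO. Per kb, Slc1a3 was 3.02, 2.89 and 2.87 times Slc1a2 in the WT cerebellar libraries and 2.38, 3.13 and 2.33 times in the KO cerebellar libraries, where KO replicates 1 and 3 were below all WT libraries and KO replicate 2 above them.

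Slc6a11 (chr6:114131241-114249952, plus strand), the GABA transporter GAT3 of astrocytes, had the largest difference of all members and the least even one. It measured 73.3, 69.7 and 66.6 CPM in WT cerebellum and 188, 64.6 and 197 CPM in KO cerebellum. KO replicates 1 and 3 were far above every WT library, and KO replicate 2 was below every one. The log2 fold change was 1.12 (SE 0.333, adjusted p = 0.381). Without KO replicate 2 it was 1.47 and passed the test (adjusted p = 3.88e-05), and with KO replicate 2 alone it was -0.10. Some neuronal genes were high in the same KO libraries, which also had the lowest granule cell sums. Nrgn measured 6.17, 4.33 and 1.99 CPM in WT and 122, 9.15 and 117 CPM in KO. Slc17a6, the vesicular glutamate transporter of midbrain and hindbrain neurons, which was looked up after the pattern was seen, measured 30.3, 29.5 and 27.2 CPM in WT and 102, 23.3 and 105 CPM in KO. Tac1, a neuropeptide precursor looked up in the same way, measured 0.483 to 0.635 CPM in WT and 8.13, 1.38 and 8.72 CPM in KO. Both belong to a list of 9 midbrain and hindbrain neuron genes, of which the 8 other than Slc17a6 summed to 51.9 to 66.1 CPM in WT and to 53.8, 56.8 and 53.8 CPM in KO. Among the genes of cortical excitatory neurons, Bcl11b measured 1.39, 1.73 and 1.93 CPM in WT and 7.55, 1.60 and 6.12 CPM in KO, and Camk2a measured 136, 143 and 136 CPM in WT and 206, 136 and 184 CPM in KO, while Tbr1 and Fezf2 were at 1.21 CPM or less in all 6 cerebellar libraries. Neurod2 of the same list went the other way, at 112, 105 and 105 CPM in WT and 80.3, 100 and 65.9 CPM in KO. Cux2 measured 36.3 to 46.2 CPM in WT and 41.1 to 42.4 CPM in KO, and Neurod6 was highest in KO replicate 2, at 10.6 CPM. Of the 7 genes of this list that were tested, 4 were higher in KO cerebellum and 3 were lower. The part of such neurons, or of the tissue around them, in the Slc6a11 values was not tested. Slc6a9, the glycine transporter GlyT1, did not follow the pattern and measured 104 to 140 CPM in WT and 123 to 133 CPM in KO.

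**Figure D3:**
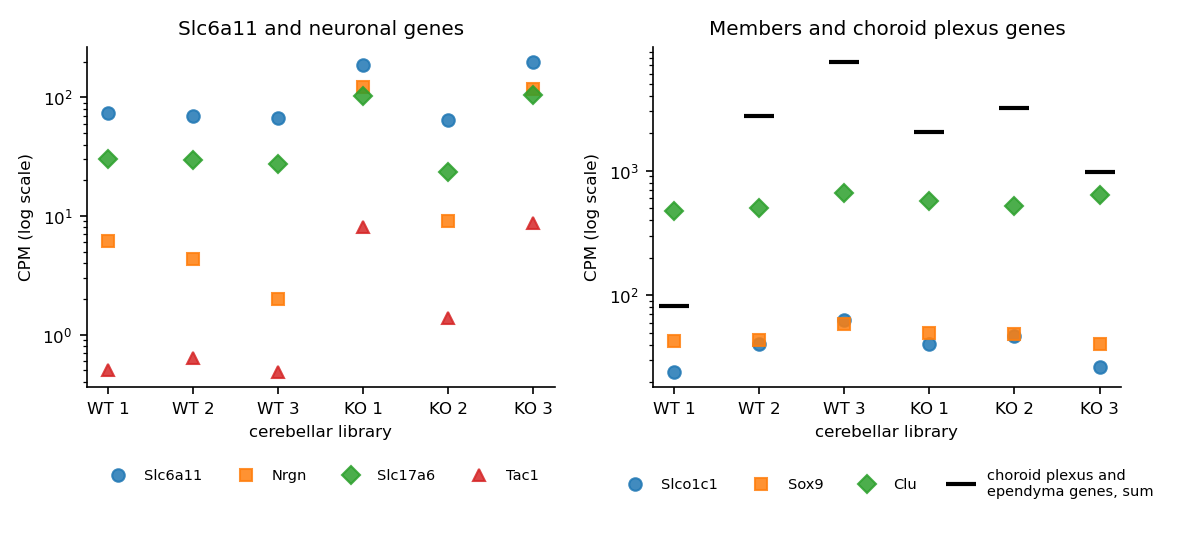
CPM on a log axis in the 6 cerebellar libraries. Left, Slc6a11, Nrgn, Slc17a6 and Tac1 are all high in KO replicates 1 and 3; right, Slco1c1, Sox9 and Clu beside the summed CPM of 8 choroid plexus and ependyma genes (bars), where WT replicate 3 has the highest value of each of the 4.

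Gja1 and Gjb6, which encode the gap junction proteins connexin 43 and connexin 30, had log2 fold changes of 0.30 and 0.29. Gja1 measured 311, 330 and 316 CPM in WT cerebellum and 349, 365 and 449 CPM in KO cerebellum, without overlap (unadjusted p = 0.0165, adjusted p = 0.445), and without KO replicate 3 its log2 fold change was 0.16. Gjb6 overlapped, at 67.8 to 110 CPM in WT and 92.2 to 118 CPM in KO, and its log2 fold change was 0.16 without KO replicate 3, 0.14 without WT replicate 3 and 0.52 without WT replicate 2. Without KO replicate 3, 0 of the 2 genes had an unadjusted p under 0.05.

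The 5 water, ion and adhesion proteins were all above 0 in fold change, with a median of 0.16 and 2 at an unadjusted p under 0.05. Without KO replicate 3 the median was 0.10, with 0 such genes. Aqp4, the water channel of astrocyte endfeet, measured 579, 585 and 606 CPM in WT cerebellum and 624, 640 and 829 CPM in KO cerebellum, and most of its log2 fold change of 0.26 came with KO replicate 3, without which it was 0.10. Mlc1, a membrane protein that partners with Hepacam at astrocyte junctions, measured 305 to 328 CPM in WT and 332 to 339 CPM in KO, a difference of 0.11 on the log2 scale without overlap. Hepacam itself was 0.23, or 0.13 without WT replicate 3. Slc4a4, the sodium bicarbonate cotransporter, was 0.16, or 0.08 without WT replicate 1 and 0.26 without WT replicate 2. Atp1b2, the sodium pump beta subunit of astrocytes, was 0.09, or 0.01 without KO replicate 3.

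Among the genes of metabolism and transport, Aldh1l1, a folate enzyme widely used as an astrocyte marker, measured 87.8, 87.8 and 79.8 CPM in WT cerebellum and 99.8, 98.1 and 109 CPM in KO cerebellum. Acsbg1, an acyl-CoA synthetase that activates long-chain fatty acids, measured 429, 432 and 421 CPM in WT and 481, 474 and 484 CPM in KO. Neither gene overlapped between the genotypes, with log2 fold changes of 0.28 (SE 0.0736, adjusted p = 0.319) and 0.18 (SE 0.0604, adjusted p = 0.430). Dao, the D-amino acid oxidase that degrades D-serine in cerebellar glia, had the lowest fold change of the members and measured 82.8, 67.2 and 86.4 CPM in WT and 77.0, 66.3 and 54.7 CPM in KO, with overlap. Its log2 fold change of -0.24 was -0.14 without KO replicate 3 and -0.37 without KO replicate 1. Ndrg2 was at 0.01 on the log2 scale. Slco1c1, a thyroid hormone and organic anion transporter also found in choroid plexus and vessels, measured 24.1, 40.3 and 63.4 CPM in WT and 40.4, 47.2 and 26.6 CPM in KO. These values had the same order over the 6 libraries as the summed choroid plexus and ependyma genes, at 81.8, 2730 and 7380 CPM in WT and 2030, 3190 and 967 CPM in KO, but for WT replicate 2 and KO replicate 1, which were nearly equal in Slco1c1. The part of choroid plexus in the Slco1c1 values was not tested. Without WT replicate 3 its log2 fold change of -0.15 became 0.25.

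The 4 transcription regulators had a median log2 fold change of 0.12, and the Hedgehog receptor and effector had one of 0.08. Id4, an inhibitor of helix-loop-helix factors, measured 178, 205 and 186 CPM in WT cerebellum and 208, 217 and 218 CPM in KO cerebellum, without overlap (log2 fold change 0.19, adjusted p = 0.515). Sox2 was 0.19, or 0.10 without KO replicate 1, Hopx, a homeodomain protein of Bergmann glia, was 0.05 and Sox9 was -0.06, all with overlap. Ptch1 measured 193, 177 and 167 CPM in WT and 184, 190 and 173 CPM in KO, a log2 fold change of 0.04 with a normal 95% interval from -0.10 to 0.18. Gli1, the transcriptional effector and itself a target of the pathway, measured 12.9, 12.7 and 11.3 CPM in WT and 12.9, 15.5 and 11.4 CPM in KO, a log2 fold change of 0.13 with an interval from -0.15 to 0.40. Of 12 other Hedgehog pathway genes, 9 were above 0 and 3 below, with a median of 0.07, and Kif7 (0.72) and Gas1 (0.30) had an unadjusted p under 0.05 and adjusted p of 0.551 and 0.496. The values of both overlapped between the genotypes, and 20.3% and 19.9% of their exon bases overlap other genes. Kif7 rests on 35 to 116 counts per cerebellar library.

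All 3 receptors had an unadjusted p under 0.05 in cerebellum. Fgfr3, a fibroblast growth factor receptor, measured 105, 94.3 and 87.8 CPM in WT cerebellum and 124, 113 and 124 CPM in KO cerebellum, without overlap. Its log2 fold change was 0.35 (SE 0.0790, adjusted p = 0.225), with the smallest unadjusted p among the members, 0.00165. Tnfrsf19, the TNF receptor family member TROY, measured 25.1, 24.9 and 25.1 CPM in WT and 32.8, 30.0 and 29.6 CPM in KO, also without overlap (log2 fold change 0.31, adjusted p = 0.289). Ntsr2, a neurotensin receptor, was 0.24 and overlapped, and it was 0.14 without KO replicate 3, when 2 of the 3 receptors had an unadjusted p under 0.05.

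Among the secreted proteins and S100b, Cst3 measured 560, 598 and 589 CPM in WT cerebellum and 673, 645 and 685 CPM in KO cerebellum, without overlap (log2 fold change 0.21, adjusted p = 0.425). Agt, the precursor of angiotensin, and Gdf10, a growth factor of the TGF-beta family made by Bergmann glia, had log2 fold changes of 0.27 and 0.25 with overlap. Agt was at 0.11 without KO replicate 3, and Gdf10 was at 0.14 without WT replicate 3 and 0.40 without WT replicate 2. Mfge8, a bridging protein for phagocytosis, was 0.14, or 0.06 without KO replicate 3. Clu, the chaperone clusterin, was 0.09 and S100b was -0.02. Clu was highest in WT replicate 3, at 665 CPM against 474 and 499 CPM in the other WT cerebellar libraries, and without that library its log2 fold change was 0.26.

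Other genes of the same cells were listed apart from the members. Of 26 other astrocyte and Bergmann glia genes, 22 were above 0 in cerebellum and 4 below, and the median of their log2 fold changes was 0.11. By the test 0 passed, and 5 had an unadjusted p under 0.05, all higher, among them Kcnj16 (0.33, adjusted p = 0.340), a potassium channel, and Entpd2 (0.71, adjusted p = 0.357), an ectonucleotidase. Entpd2 rests on 70 to 163 counts per cerebellar library, and 28.8% of its exon bases overlap another gene. The 16 reactive astrocyte genes were all above 0, 8 of them at an unadjusted p under 0.05, with a median of 0.93, and DESeq2 called 1 of them. Without KO replicate 3 the median was 0.38 and 15 of 16 were above 0. C4b (1.18, adjusted p = 0.203), a complement component, and Osmr (0.97, adjusted p = 0.340), the oncostatin M receptor, had the smallest p. Gfap measured 276, 309 and 293 CPM in WT cerebellum and 373, 442 and 912 CPM in KO cerebellum, a log2 fold change of 0.99 (adjusted p = 0.358) without overlap. Without KO replicate 3 it was 0.48 (adjusted p = 0.637), and with no filter on low counts it was 0.98 and passed (adjusted p = 0.000828). The edgeR fit with no filter called 347 genes in all, against 1 in the main fit. The median of the resting genes was 0.18 where that of the reactive genes was 0.93, and 0.13 where it was 0.38 without KO replicate 3. Several reactive genes had few counts per WT cerebellar library: 1 to 6 for Lcn2, 5 to 10 for Timp1 and Cxcl10, 8 to 11 for Steap4 and 28 to 33 for Osmr. Gfap had 4960 or more, and Gli1, the member with the fewest, had 210 to 232. The difference between the lists was not tested.

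In cortex, no member passed the test in Snx14-KO against WT libraries, where 0.00548% of 18255 genes did. Dao had too few counts to be tested, and of the other 31 members 18 were above 0 and 13 below, with a median log2 fold change of 0.01. At an unadjusted p under 0.05, 2 members were higher and 0 were lower, where 2.24% of all genes were higher and 2.26% were lower. KO libraries lay above WT libraries in 2 members and below in 0, against 4.57% and 4.67% of all genes. Atp1b2 measured 408, 386 and 379 CPM in WT cortex and 409, 452 and 456 CPM in KO cortex (log2 fold change 0.17, adjusted p = 0.996). Hopx measured 32.7, 40.4 and 33.2 CPM in WT and 35.9, 47.2 and 49.2 CPM in KO, with overlap (0.32, adjusted p = 0.996). Gli1 did not overlap, at 1.07 to 1.59 CPM in WT and 1.73 to 2.69 CPM in KO (0.59, adjusted p = 0.996), which rests on 20 to 49 counts per library and was 0.36 without KO replicate 2.

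KO replicate 2 of the cortex stood apart in several members. Aqp4 measured 188, 151 and 150 CPM in WT cortex and 139, 282 and 180 CPM in KO cortex, and its log2 fold change of 0.30 became -0.03 without that library and 0.50 without KO replicate 1. Mfge8 measured 164, 134 and 162 CPM in WT and 161, 89.1 and 175 CPM in KO, and its log2 fold change of -0.12 became 0.13 without it. The same library held the highest summed reactive astrocyte genes, 1370 CPM against 212 to 279 CPM in WT, and the highest meningeal fibroblast genes, 401 CPM against 102 to 157 CPM in WT, and the lowest oligodendrocyte genes, 5630 CPM against 7920 to 8200 CPM in WT. The part of these in the Aqp4 and Mfge8 values was not tested. Of the 16 reactive astrocyte genes, 12 could be tested in cortex, and all 12 were above 0, with a median of 0.94. Of these, 6 had an unadjusted p under 0.05 and 0 passed the test. The 16 genes summed to 285, 1370 and 344 CPM in KO cortex. The log2 fold change of Gfap in cortex was 0.42 without KO replicate 2 and 1.92 without KO replicate 1. Slc6a11 was even in cortex, at 160 to 183 CPM in WT and 150 to 162 CPM in KO.

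The difference between the genotype effects in the 2 tissues was tested by an interaction term in a fit of all 12 libraries. With the adjusted p under 0.05, 0% of 19380 genes passed and no member did. At an unadjusted p under 0.05, 5 members passed where 5.68% of all genes did, all with the larger KO to WT ratio in cerebellum. DESeq2 called 40 genes and 0 members. The members were Slc6a11 (1.21, SE 0.381, adjusted p = 0.527), Cst3 (0.41, adjusted p = 0.803), Slc1a2 (0.34, adjusted p = 0.800), Fgfr3 (0.33, adjusted p = 0.849) and Dao, which rests on 0 to 9 counts in the cortical libraries. Without KO mouse 2, Slc6a11 passed with a difference of 1.54 (adjusted p = 4.16e-06).

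The tissues themselves differed far more than the genotypes. In WT mice, 18 members were higher in cerebellum than in cortex and 7 were lower, by the same test, where 19% of 18543 genes were higher and 21.4% were lower. In KO mice, which share no library with this comparison, 19 were higher and 6 lower, where 18.2% and 19.6% of 18542 genes were. All 18 members higher in WT cerebellum were also higher in KO cerebellum, with Gjb6 in addition (0.51, near the threshold), and all 6 lower in KO were among the 7 lower in WT. The exception was Slc6a11, at -1.27 in WT and -0.06 in KO, which was 0.30 in KO without KO replicate 2 and -0.30 without KO replicate 3.

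**Figure D4:**
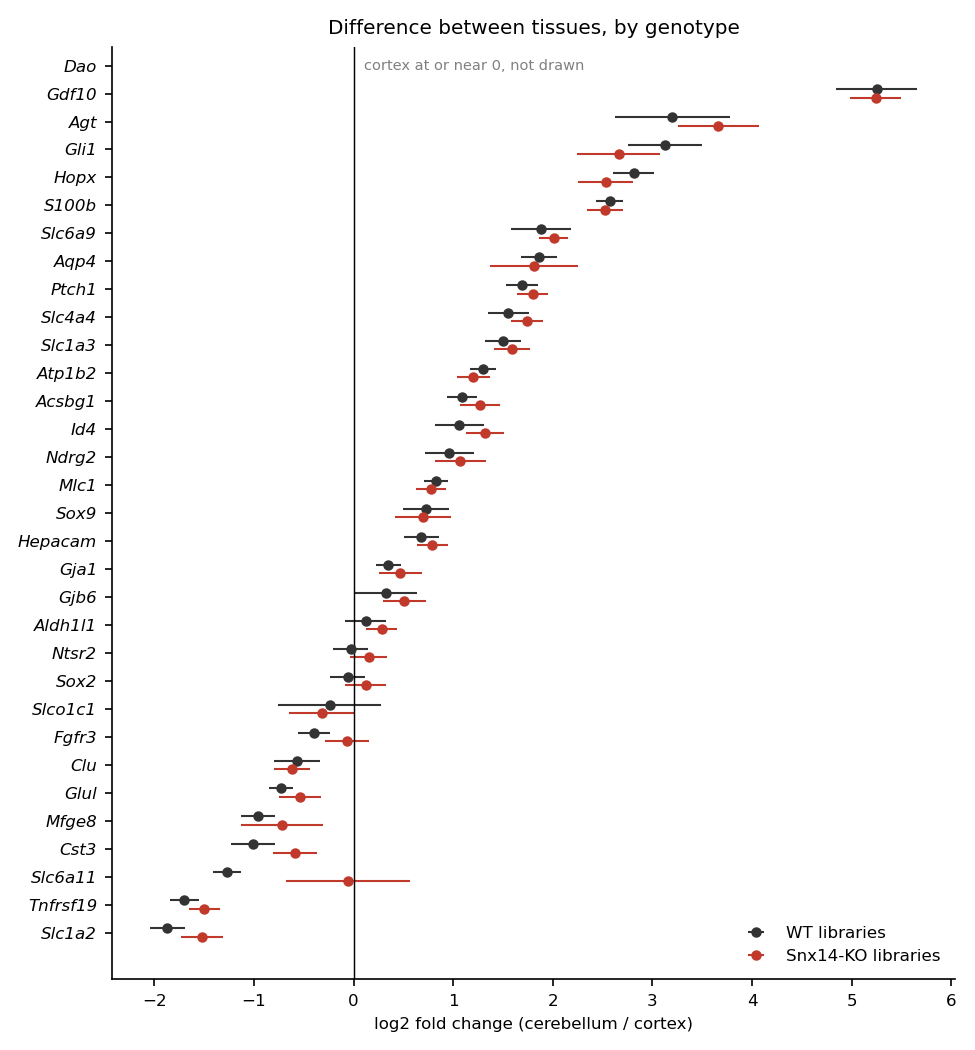
Log2 fold change of each member between cerebellum and cortex in WT libraries (dark) and in Snx14-KO libraries (red), with normal 95% intervals. Positive values are higher in cerebellum. In both genotypes the points run from Gdf10 at the top to Slc1a2 at the bottom, and Slc6a11 is the member whose points lie far apart; Dao is not drawn because cortex held 9 counts or fewer per library.

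The genes higher in cerebellum included those known from Bergmann glia. Gdf10 (chr14:33923587-33937983, plus strand) measured 242, 300 and 213 CPM in WT cerebellum and 5.21, 9.23 and 5.46 CPM in WT cortex, a log2 fold change of 5.25 (SE 0.208, adjusted p = 7.56e-09). Dao measured 67.2 to 86.4 CPM in WT cerebellum, from 1165 counts or more per library, and had 9, 4 and 5 counts in WT cortex and 0, 2 and 2 counts in KO cortex. Hopx was at 2.81 on the log2 scale, S100b at 2.57 and Agt at 3.20. Of the Hedgehog genes, Ptch1 (chr13:63508328-63573598, minus strand) measured 193, 177 and 167 CPM in WT cerebellum and 60.5, 53.8 and 52.3 CPM in WT cortex, a log2 fold change of 1.69 (adjusted p = 3.36e-08). Gli1 measured 11.3 to 12.9 CPM and 1.07 to 1.59 CPM, a log2 fold change of 3.13 (adjusted p = 1.99e-07). Of 12 other Hedgehog pathway genes, 6 were higher and 1 lower in WT cerebellum by the same test. All 5 water, ion and adhesion proteins were higher, from 0.68 for Hepacam to 1.86 for Aqp4, as were Acsbg1 (1.09), Id4 (1.06), Ndrg2 (0.96) and Sox9 (0.73).

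The glutamate transporters went in opposite directions. Slc1a2 measured 1010 to 1220 CPM in WT cerebellum and 3790 to 4340 CPM in WT cortex, a log2 fold change of -1.87 (SE 0.0888, adjusted p = 3.02e-08). Slc1a3 measured 1980 to 2290 CPM and 657 to 811 CPM, a log2 fold change of 1.5 (SE 0.0935, adjusted p = 2.50e-07). Per kb, Slc1a3 stood at 2.87 to 3.02 times Slc1a2 in WT cerebellum and at 0.267 to 0.296 times in WT cortex. Glul was lower in cerebellum, at -0.73. The inhibitory transmitter transporters split in the same way, with Slc6a9 at 1.88 and Slc6a11 at -1.27 in WT. Reads on Slc6a9 are less certain than the rest, since 30.2% of its exon bases overlap other genes and reads were counted without strand. The same holds for Hopx (27.2%, with its antisense gene), Fgfr3 (13.9%) and Aldh1l1 (13.4%), and for 6.55% or less of the exon bases of Gli1, Id4, Glul and Slc1a2.

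The other members lower in WT cerebellum were Tnfrsf19, at 24.9 to 25.1 CPM against 76.0 to 86.7 CPM in cortex (-1.70), Cst3 (-1.01), Mfge8 (-0.96) and Clu (-0.57). Lists of other cells differed too: of 14 microglia and macrophage genes, 13 were lower in WT cerebellum by the same test and 1 was higher, with a median of -0.98. The part of other cells in the members' tissue differences was not tested. Without WT replicate 1 of the cerebellum, Clu was at -0.48 and no longer passed. In KO mice, Glul (-0.54) fell short of the fold threshold without KO replicate 2 of the cerebellum (-0.47) or KO replicate 3 of the cortex (-0.43), and Mfge8 (-0.72) no longer passed without KO replicate 1 of the cerebellum (adjusted p = 0.057) or KO replicates 1 (0.0613) or 3 (0.0786) of the cortex. Gjb6 was at or below the threshold under DESeq2, RLE factors and no filter (0.50 in each), and without KO replicate 3 of the cerebellum (0.40) or KO replicates 1 (0.48) or 2 (0.45) of the cortex. Gja1 in KO mice (0.47) passed without KO replicates 1 (0.54) or 2 (0.51) of the cerebellum or KO replicate 2 of the cortex (0.53), and Slco1c1 in WT mice passed without WT replicate 3 of the cerebellum (-0.64, adjusted p = 0.0114). The genes that did not pass in WT were Gja1 (0.35), Gjb6 (0.32), Aldh1l1 (0.12), Ntsr2 (-0.03), Sox2 (-0.06), Slco1c1 (-0.24) and Fgfr3 (-0.40).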

How the data were processed

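Bulk RNA-seq libraries, 1 from each tissue of each numbered mouse, were analysed from the deposited gene counts. Per the file headers and the study's methods, the authors trimmed the reads, aligned them with STAR (GRCm38) and assigned read pairs to genes with featureCounts (Subread 2.0.1), without strand, without multi-mapped reads and with a pair counted for every gene it overlaps. The headers' Length column, the exon bases of each gene as deposited by the authors, gave CPM per kb. All 55536 gene identifiers matched names in GENCODE vM21; 97 spike-in features had 0 counts and 26248 numbered features, 0.0506% to 0.0632% of counts, were left out. Exons of 8 members overlap other genes.

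Counts were tested with edgeR 4.0.16 (R 4.3.3) by quasi-likelihood F tests after filterByExpr and TMM scaling, with only the compared groups in each fit and the p-values adjusted over all genes tested (Benjamini-Hochberg). A gene was called at an adjusted p under 0.05 if its log2 fold change also passed 0.50 in either direction; the interaction used the adjusted p alone. Intervals are normal 95% intervals from the SE. They are narrower than intervals from the quasi-likelihood F test would be, so a bar can exclude 0 where the unadjusted p is 0.05 or more. CPM used TMM factors over 12 libraries. Tests were checked on simulated counts. Alternatives were DESeq2 1.42.0, RLE factors, no filter beyond 1 count, each replicate left out, the mouse number as a block and CPM by total count. Libraries of 1 group differed by more than sampling noise, and none was counted as a duplicate. The labels give mice as replicates.

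All members, Snx14 and Gfap were named by rule, and of other lists at most the 3 genes with the smallest unadjusted p under 0.05. Nrgn, Camk2a, Neurod2, Neurod6, Cux2, Tbr1, Fezf2, Slc17a6, Tac1, Lcn2, Timp1, Cxcl10, Steap4 and the midbrain and hindbrain list were named after their values were seen. Some genes of these lists are not reported here. The members and lists were chosen with earlier results of these data known. The tissue numbers pair libraries of 1 mouse per the labels (correlation of deviations 0.07 to 0.16 in WT and 0.02 to 0.34 in KO). Sequences are from RefSeq (GRCm38.p6).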

Additional observations from a re-analysis of the deposited data

How the results depend on the processing

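The count of members called between the tissues kept its direction and stayed within 1.5 times under every alternative run, as did the 21 members with a higher mean in WT cerebellum under CPM by total count. In Snx14-KO against WT cerebellum, members called went from 0 to 1 (Slc6a11) with no filter on low counts, and ranged from 0 to 1 with a replicate left out. Members with an unadjusted p under 0.05 ranged from 7 to 15 of 32 and their median log2 fold change from 0.13 to 0.19 with a replicate left out. With KO replicate 2 alone against WT, which was added after the data were seen and assumes that this library varies like the WT libraries, these were 0 and 0.13, and Slc6a11 (-0.10), Ndrg2 (-0.03), Slco1c1 (0.15), Sox9 (0.01), Agt (-0.04), Clu (-0.07) and S100b (0.07) changed sign. In cortex, members with an unadjusted p under 0.05 went from 2 to 6 with no filter and to 1 with the replicate block, and ranged from 0 to 6 with a replicate left out. For the interaction, members called went from 0 to 2 (Slc6a11 and Cst3) and those with an unadjusted p under 0.05 from 5 to 8 with no filter; they ranged from 0 to 1 and from 2 to 5 with a mouse left out. The causes were not tested.

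With a replicate left out, these log2 fold changes crossed 0 in cerebellum: Slc6a9 (-0.00 to 0.20), Ndrg2 (-0.09 to 0.15), Slco1c1 (-0.44 to 0.25), Sox9 (-0.16 to 0.10), Hopx (-0.08 to 0.13), Ptch1 (-0.01 to 0.09), Gli1 (-0.01 to 0.21), Clu (-0.01 to 0.26) and S100b (-0.08 to 0.03). In cortex Aqp4 (-0.03 to 0.50) and Mfge8 (-0.29 to 0.13) did, and between the tissues Slco1c1 (-0.64 to 0.05) and Ntsr2 (-0.11 to 0.04) in WT and Slc6a11 (-0.30 to 0.30) and Fgfr3 (-0.19 to 0.02) in KO.

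Genes called over all genes depended on the tool. In cerebellum they were 1 with edgeR, 164 with DESeq2, 347 with no filter, 10 without WT replicate 2, 2 without WT replicate 3 and 254 without KO replicate 2; in cortex 1, 9 with DESeq2, 149 with no filter and 2 without KO replicate 1; for the interaction 0, 40, 418 with no filter, 1 without WT mouse 1 and 249 without KO mouse 2. Equal mouse numbers of WT and KO libraries did not deviate together (correlations -0.03 to 0.07 in cerebellum and -0.09 to 0.08 in cortex), and not every library correlated best with its own number; the replicate block called 0 members in cerebellum and 0 in cortex, as without it. Between the tissues the replicate block called 25 members in WT and 25 in KO and changed no call. Depth limits Dao and Gli1 in cortex, with 0 to 9 and 20 to 49 counts per library.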
